A study of Mus musculus with 12 samples.

Results

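The miR-199 and miR-214 miRNAs were followed in the retina and sclera of a mouse model of form-deprivation myopia. All mouse miRNAs on the array whose name starts with mmu-miR-199 or mmu-miR-214- were taken, which gave 5 of 696 names: mmu-miR-199a-3p, mmu-miR-199a-5p, mmu-miR-199b-5p, mmu-miR-214-3p and mmu-miR-214-5p. The mice were of the C57BL/6J strain, and a frosted diffuser was worn over the right eye from postnatal day 24 for 10 days, until the tissue was taken at P34. The left eye of the same animals stayed uncovered and was the control, and eyes of animals without a diffuser were not analysed here. The 4 groups were control retina, myopic retina, control sclera and myopic sclera, with 3 pools per group, 1 array per pool and the tissue of 3 eyes in each pool per the extraction protocol. The sample titles name a single mouse per array, so the pool number is used here to name the arrays. All 12 samples were total RNA of whole retina or whole sclera, and every slide carried 1 array of each group.

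Every miRNA is cut from a hairpin, and the strands of the stem give a 5p arm and a 3p arm, 1 or both of which may be kept. Bases 2 to 8 of the mature miRNA, the seed, pair with target mRNAs. The miR-199 and miR-214 hairpins on mouse chromosome 1 are made from the long non-coding transcript Dnm3os, which is read from the opposite strand of an intron of Dnm3. They are known from mesenchymal cells such as fibroblasts, chondrocytes and smooth muscle cells. The sclera is a collagen-rich coat laid down by fibroblasts, whereas the retina is mainly neurons and glia.

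In RefSeq (GRCm38.p6), the hairpin Mir199a-2 lies at chr1:162217814-162217923 on the plus strand and Mir214 at chr1:162223368-162223477 on the same strand, with 5444 bases between them. Both lie within Dnm3os (chr1:162217623-162225550) and within the bounds of Dnm3 (chr1:161982450-162478321). A second copy, Mir199a-1 (chr9:21496495-21496564, minus strand), gives the same mature miR-199a arms and lies within Dnm2. Mir199b (chr2:32318460-32318569, plus strand) lies within Dnm1. The array cannot tell which copy a miR-199a molecule came from. The mature sequences of the arms compared are given with the seed in capitals, and 4 of the 5 names had an entry.
mmu-miR-199a-5p: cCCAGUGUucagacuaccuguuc
mmu-miR-199a-3p: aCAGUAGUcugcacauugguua
mmu-miR-214-5p: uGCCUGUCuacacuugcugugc
mmu-miR-214-3p: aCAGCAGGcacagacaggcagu
The 4 seeds differed from each other. The mature sequence of mmu-miR-199b-3p was identical to mmu-miR-199a-3p, so the signal named miR-199a-3p holds both. The 5p arms of miR-199a and miR-199b were told apart by probes that shared 19 bases with 1 difference, G14A, counted from the 5′ end of the probe, with the miR-199a-5p base first. The longer probe of each is given from the array files, with the differing base in capitals.
mmu-miR-199a-5p probe: gaacaggtagtctGaacac
mmu-miR-199b-5p probe: gaacaggtagtctAaacactgg
With a difference at a single base, some binding of 1 miRNA to the probe of the other was possible, and its size was not tested.

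The tissues were checked against miRNAs known from their main cell types. Of 10 miRNAs of retinal neurons and photoreceptors, such as mmu-miR-124-3p, mmu-miR-9-5p and mmu-miR-96-5p, all 10 were called higher in control retina than in control sclera. Of 13 stromal and smooth muscle miRNAs, 10 were called lower in retina and 1 higher. Between 353 and 401 names were detected on a retina array and between 274 and 317 on a sclera array, and no spot was saturated. The sclera arrays also detected 7 to 10 of the 10 neuronal miRNAs, with a summed quantile-normalised signal of 2797 to 15541, against 188345 to 199139 in the retina arrays. The precision is limited by the 3 arrays per group, and p-values measure the spread between these pools.

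The 3 miR-199 arms and mmu-miR-214-3p were scleral miRNAs in these data, with no overlap between the tissues, whereas mmu-miR-214-5p did not follow them. Levels are given first as the total gene signal, the background-subtracted fluorescence summed over the detected probes of a miRNA, in array units before any scaling between arrays. In control sclera the miR-199a-3p signal was 8277 in pool 1, 10824 in pool 2 and 3479 in pool 3, and in myopic sclera it was 8929, 7617 and 6706. In control retina it was 36.8, 49.7 and 197, and in myopic retina 42.5, 60.9 and 44.3. The retina and sclera did not overlap, and the third control retina pool was the highest retina array.

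The 5p arm of the same hairpin had the same order of groups. The miR-199a-5p signal was 2037, 2498 and 881 in the control sclera pools and 2206, 1747 and 1519 in the myopic sclera pools. It was 8.31, 10.5 and 39.6 in control retina and 9.63, 18.3 and 9.56 in myopic retina. Again no retina array came near a sclera array, and control retina pool 3 stood above the other 5 retina arrays. For miR-199b-5p the signal was 7541, 9070 and 2839 in control sclera and 7378, 6363 and 5384 in myopic sclera. In control retina it was 19.0, 30.7 and 169, and in myopic retina 28.3, 40.2 and 22.5. Control retina pool 3 was once more the highest retina array, and control sclera pool 3 was the lowest sclera array for all 3 miR-199 arms before scaling.

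The arms of miR-214 differed in where they were detected, the 3p arm in sclera alone and the 5p arm in both tissues. The miR-214-3p signal was 618, 775 and 458 in control sclera and 711, 562 and 480 in myopic sclera, and it was not detected on any of the 6 retina arrays. The miR-214-5p signal was 9.09, 10.5 and 3.48 in control sclera and 10.3, 8.29 and 6.52 in myopic sclera. In myopic retina it was 221, 305 and 154. In control retina it was 137 in pool 1 and 23.2 in pool 2, and it was not detected in pool 3. In total gene signal, every retina array with a detected miR-214-5p signal was above every sclera array. This signal sums 4 probes on those retina arrays and 1 in sclera. On the probe of 17 bases, which was detected in both tissues, control retina pool 2 read 5.51 before scaling, within the unscaled scleral range of 3.48 to 10.5. The control retina pools were spread more widely than any other group.

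**Figure D1:**
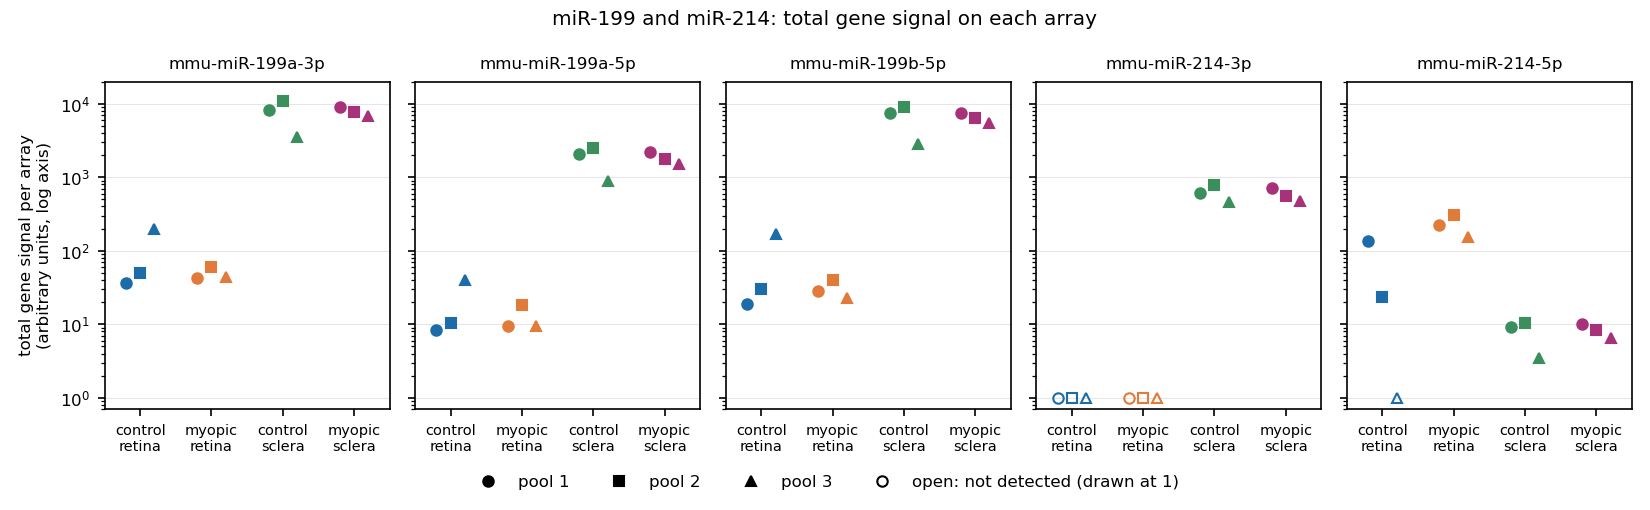
Total gene signal (array units, log axis) of the 5 miRNAs on each of the 12 arrays, by group; each point is 1 pool of 3 eyes, and arrays on which a miRNA was not detected are drawn as open points at 1. The miR-199 arms and miR-214-3p are high in all 6 sclera pools, and miR-214-5p is highest in the 3 myopic retina pools.

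For the tests the total gene signals were set to at least 0.5, quantile normalised over the 12 arrays and transformed to log2, and a miRNA was called when the limma adjusted p-value was under 0.05 and the change at least 2-fold. Between control retina and control sclera, 4 of the 5 miRNAs were called, all 4 lower in retina, where 50.6% of the 443 miRNAs tested were called and 23% were called lower. The groups did not overlap for these 4, with retina below. Over all miRNAs tested they did not overlap for 58.9% in either direction and for 26% with retina below. The log2 level of miR-199a-3p was 5.69 ± 1.48 (SD, n = 3) in control retina and 13.59 in control sclera. The difference was -7.90 (SE 0.58, adjusted p = 1.9e-06), or 239-fold. The value of 13.59 had no spread because miR-199a-3p held rank 7 by signal on all 3 arrays, and quantile normalisation gives the same value to the same rank. For miR-199a-5p the levels were 3.66 ± 1.58 and 11.44 ± 0.04, with a difference of -7.78 (SE 0.63, adjusted p = 3.7e-06), or 219-fold. For miR-199b-5p they were 5.09 ± 1.85 and 13.37 ± 0.07, with a difference of -8.28 (SE 0.71, adjusted p = 5.6e-06), or 311-fold. The median difference of all miRNAs tested was 0.30, towards retina.

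For miR-214-3p the retina gave a bound and no level. Its limit on each control retina array was taken as 3 times the error of its probes, summed over both probes, or their signal where this was higher, and it was 13.6 to 13.9. Against these limits miR-214-3p was at least 89.9-fold higher in control sclera (9.91 ± 0.47, log2 of the percentile-scaled signal, n = 3), and in the fit of the quantile-normalised values, with the retina at the floor, the adjusted p was 9.1e-11. The level of miR-214-5p was 3.31 ± 3.88 in control retina and 4.53 ± 0.20 in control sclera, a difference of -1.22 (SE 1.48, adjusted p = 0.485). This mean was set by the control retina pool in which miR-214-5p was not detected. Without that array the difference was 0.93 in favour of retina, with an adjusted p of 0.134. It then sets the sum of 4 detected probes in retina against 1 in sclera. In bulk tissue, fewer cells of a type and less RNA per cell cannot be told apart.

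The same 4 miRNAs were called lower in the retina in the deprived eyes. Here 58.9% of the miRNAs tested were called and 26.4% were called lower. The myopic retina minus myopic sclera difference was -9.10 for miR-199a-3p (adjusted p = 5.6e-07), -9.40 for miR-199a-5p (adjusted p = 7.6e-07) and -9.74 for miR-199b-5p (adjusted p = 1.4e-06). These are 549-fold, 676-fold and 857-fold. The miR-214-3p signal was at least 95.2-fold higher in myopic sclera, against limits of 11.5 to 17.8 on the myopic retina arrays. The miR-214-5p level was 6.97 ± 0.09 in myopic retina and 4.69 ± 0.10 in myopic sclera, higher in retina in all 3 pools. The retinal level sums 4 detected probes and the scleral level 1, and the part of this in the difference was not tested. On the probe of 17 bases alone the signals were 58.2, 78.5 and 40.5 in myopic retina and 10.3, 8.29 and 6.52 in myopic sclera. For all 5 miRNAs the myopic retina and sclera did not overlap, as for 78.6% of all miRNAs tested. The miR-214-5p difference of 2.28 (SE 1.48) had an adjusted p of 0.198 in the fit of all 4 groups. The spread of that fit includes the control retina pools. In a fit of the 6 arrays compared the adjusted p was 8.0e-06, and without control retina pool 3 it was 0.0018.

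In the log2 values that the authors deposited, the tissue differences of the miR-199 arms were of the same size. The control retina minus control sclera difference in these values was -7.77 for miR-199a-3p, -8.00 for miR-199a-5p, -8.22 for miR-199b-5p and -1.12 for miR-214-5p. The deposited mean for miR-214-5p was 3.20 ± 3.80 in control retina, 6.85 ± 0.09 in myopic retina, 4.32 ± 0.20 in control sclera and 4.48 ± 0.10 in myopic sclera.

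The 5p minus 3p difference was then compared between the tissues, since the brightness of a probe cancels in it where both tissues detect the same probes. This was not so for all arms. For miR-199a-5p 1 probe was detected in retina and 2 in sclera, and for miR-214-5p up to 4 in retina and 1 in sclera. The miR-199a difference was -2.07, -2.14 and -1.90 on the log2 scale in the control retina pools. In the myopic retina pools it was -2.58, -2.07 and -2.32. In control sclera it was -2.18, -2.11 and -2.18, and in myopic sclera -1.97, -2.07 and -2.04. The 12 arrays lay within 1 log2 unit of each other, although each arm differed by 219-fold or more between the tissues. The mean was -2.03 ± 0.12 in control retina and -2.16 ± 0.04 in control sclera, a difference of 0.12 (SE 0.19, adjusted p = 0.681). In the deprived eyes the difference between the tissues was -0.30 (SE 0.19, adjusted p = 0.232), and it turned to 0.067 with the arrays scaled by their 75th percentile. With normexp background correction, which adds a constant of 50 to all signals, it was 2.18 (adjusted p = 1.5e-07) in the control and 2.53 (adjusted p = 1.1e-07) in the deprived eyes, and the miR-199a pair was then called in both.

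For miR-214 the difference between the arms had opposite signs in the tissues. It was -5.20, -5.35 and -5.86 in control sclera and -5.25, -4.98 and -5.14 in myopic sclera. In retina it was 7.51 and 5.40 in control pools 1 and 2 and 8.01, 8.03 and 7.86 in the myopic pools. In control retina pool 3 it was 0, since neither arm was detected. These retina values take miR-214-3p at the floor of 0.5, so that their sizes are set by the floor. On the 5 retina arrays with a miR-214-5p signal they also sum 4 probes of it, against 1 in sclera. With miR-214-3p at its detection limit and percentile scaling, the 5p minus 3p difference was at least 3.30 and 0.75 in control retina pools 1 and 2 and at least 4.27, 4.10 and 3.57 in the myopic retina pools, against -6.09 to -7.04 in control sclera and -6.08 to -6.20 in myopic sclera. The adjusted p between the tissues, with the floor, was 1.1e-04 in the deprived and 8.4e-04 in the control eyes, and no size is given for these differences. Of the 2 arm pairs, 1 was called in each of these comparisons, against 27.6% of the 76 pairs in the control eyes and 38.2% in the deprived eyes. The tissues did not overlap for this pair in either, as for 36.8% of the pairs in the control and 75% in the deprived eyes. With retina above, as for this pair, the shares were 21.1% and 38.2%. In the control eyes this includes retina pool 3, whose place is set by the floor of both arms and measures neither. On the 6 sclera arrays both arms of miR-214 were detected, whereas 5 of the 6 retina arrays detected the 5p arm alone.

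**Figure D2:**
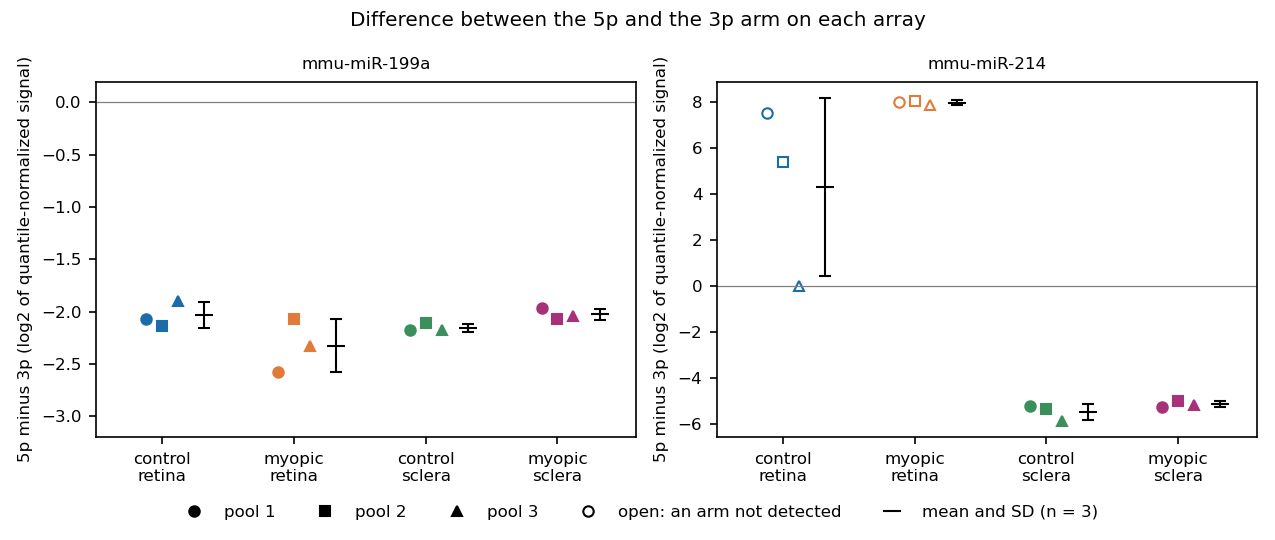
Difference between the 5p and 3p arm (log2 of the quantile-normalised signal, 5p minus 3p) of miR-199a and miR-214 on each of the 12 arrays, by group; each point is 1 pool, the bars are the mean and SD (n = 3), and open points mark arrays on which an arm was not detected and is at the floor. All miR-199a values lie between -2.58 and -1.90, while miR-214 is at -4.98 or below in the 6 sclera pools, at 5.40 or above in 5 retina pools and at 0 in the pool where neither arm was detected.

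The 3p arm shared by miR-199b and miR-199a was also set against miR-199b-5p. The miR-199b-5p minus miR-199a-3p difference was -0.60 ± 0.38 in control retina, -0.88 ± 0.23 in myopic retina, -0.22 ± 0.07 in control sclera and -0.24 ± 0.05 in myopic sclera (log2, n = 3). It was not tested, because the 3p signal is the sum of both hairpin families. The value of -0.25 in control retina pool 3 lay within the range of the sclera arrays, from -0.30 to -0.18, and the other 5 retina arrays were below it.

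The arrays carry nested probes for each miRNA, which start at the same base and differ in how many bases they reach towards the 5′ end of the miRNA. The 4 probes of miR-214-5p are given, with the bases beyond the shortest in capitals, since they behaved differently in the tissues.
miR-214-5p probe of 14 bases: gcacagcaagtgta
miR-214-5p probe of 15 bases: gcacagcaagtgtaG
miR-214-5p probe of 16 bases: gcacagcaagtgtaGA
miR-214-5p probe of 17 bases: gcacagcaagtgtaGAC
In the 5 retina arrays with a miR-214-5p signal all 4 probes were detected and were about equally bright. In myopic retina pool 2 the signals were 72.6, 74.7, 78.9 and 78.5 from the shortest to the longest probe, and in control retina pool 1 they were 30.9, 33.4, 34.6 and 38.3. The ratio of the longest to the shortest was 1.08 to 1.24 in these arrays. In sclera only the probe of 17 bases was detected, on 6 of 6 arrays at 3.48 to 10.5, and the shorter probes read -1.26 to 1.00. The relation between the probes thus differed between the tissues, which is given here as a description, and the scleral level rests on 1 probe of 5 spots.

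For the other miRNAs the probe ratios of the tissues overlapped where both probes were detected in both tissues. The ratio of the probe of 20 bases to that of 19 bases of miR-199a-3p was 2.06 to 2.32 in retina and 2.04 to 2.12 in sclera. For miR-199b-5p the ratio of the probe of 22 bases to that of 21 bases was 2.75 to 3.19 on the 4 retina arrays where both were detected and 2.61 to 2.78 in sclera. For miR-199a-5p it was 7.06 to 7.35 in sclera, whereas in retina the probe of 18 bases was not detected on any of the 6 arrays. The retinal miR-199a-5p level is thus the signal of the probe of 19 bases alone, and the lowest of these, 8.31, was 3.37 times its error. The probes of miR-214-3p are short.
miR-214-3p probe of 12 bases: actgcctgtctg
miR-214-3p probe of 13 bases: actgcctgtctgT
In sclera the longer was 2.96 to 3.37 times the shorter. In retina the shorter read -2.35 to 0.33 and the longer -0.62 to 6.80, and the highest of these, in control retina pool 3, stayed just under 3 times its error, the limit for detection.

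**Figure D3:**
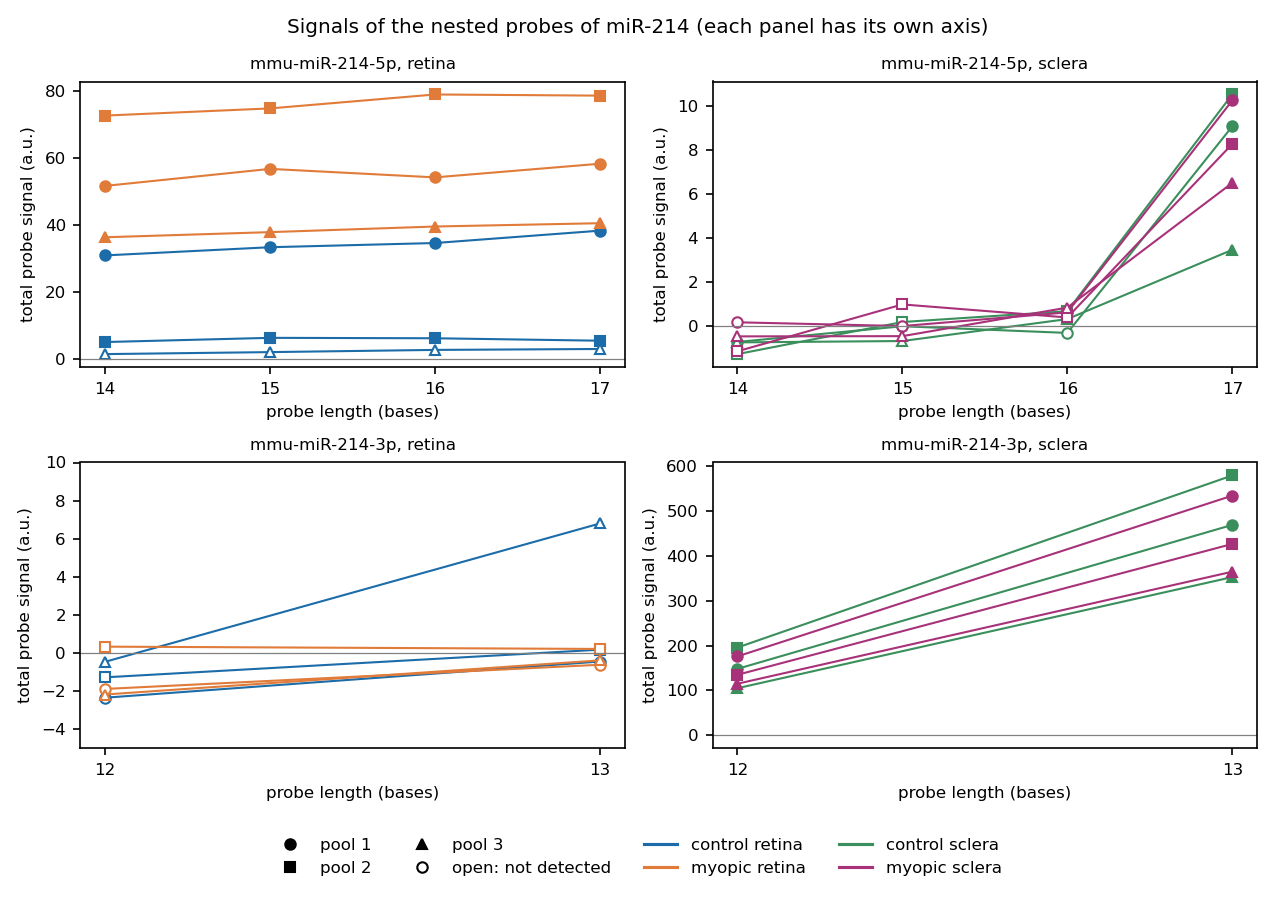
Signal of each nested probe (array units, own axis per panel) of miR-214-5p and miR-214-3p against probe length in bases, on the 6 retina and the 6 sclera arrays; each line is 1 array, and open points mark probes that were not detected. The 4 probes of miR-214-5p lie at about the same height within a retina array, while only the longest is detected in sclera, and both probes of miR-214-3p are detected in sclera alone.

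Whether form deprivation went with a change of these miRNAs was asked in each tissue. In the retina 0 of 5 were called by limma, where 1 of 443 miRNAs tested (0.226%) was called. At an unadjusted p-value under 0.05 there were 2 of 5, miR-199a-5p and miR-214-5p, against 29.3% of all miRNAs tested. The myopic minus control difference was -1.14 for miR-199a-3p (SE 0.58, adjusted p = 0.229), -1.43 for miR-199a-5p (SE 0.63, adjusted p = 0.168) and -1.42 for miR-199b-5p (SE 0.71, adjusted p = 0.220). By pool, miR-199a-5p was lower in the myopic retina in 3 of 3 pools and the other miR-199 arms in 2 of 3. The median difference of all miRNAs tested was -0.12.

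The retinal miR-199 difference came mainly from control retina pool 3. In total gene signal, the myopic to control ratio of miR-199a-3p was 1.15 in pool 1, 1.22 in pool 2 and 0.225 in pool 3. It was 1.16, 1.74 and 0.241 for miR-199a-5p, and 1.49, 1.31 and 0.133 for miR-199b-5p. In control retina pool 1 and myopic retina pool 3 the miR-199b-5p probe of 21 bases was not detected, so these signals hold 1 probe and the others 2. On the probe of 22 bases alone the signals were 19.0, 22.5 and 125 in control retina and 21.6, 30.4 and 22.5 in myopic retina. Before scaling, all 3 arms were thus higher in the myopic retina in pools 1 and 2 and lower in pool 3. After quantile normalisation the differences of miR-199a-5p were -0.45, -1.08 and -2.76, whereas with each array divided by its 75th percentile they were 0.14, 0.42 and -1.92. Without control retina pool 3 the quantile-normalised differences were -0.37 for miR-199a-3p, -0.59 for miR-199a-5p and -0.47 for miR-199b-5p. With the percentile scaling and without this pool they were 0.055, 0.22 and 0.16.

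The scaling moved other miRNAs of this level in the same way. For the 62 miRNAs with a retinal level similar to the miR-199 arms the median myopic minus control difference was -0.81 after quantile normalisation, with 52 of 62 lower, and 0.00 with the percentile scaling, with 30 of 62 lower.

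**Figure D4:**
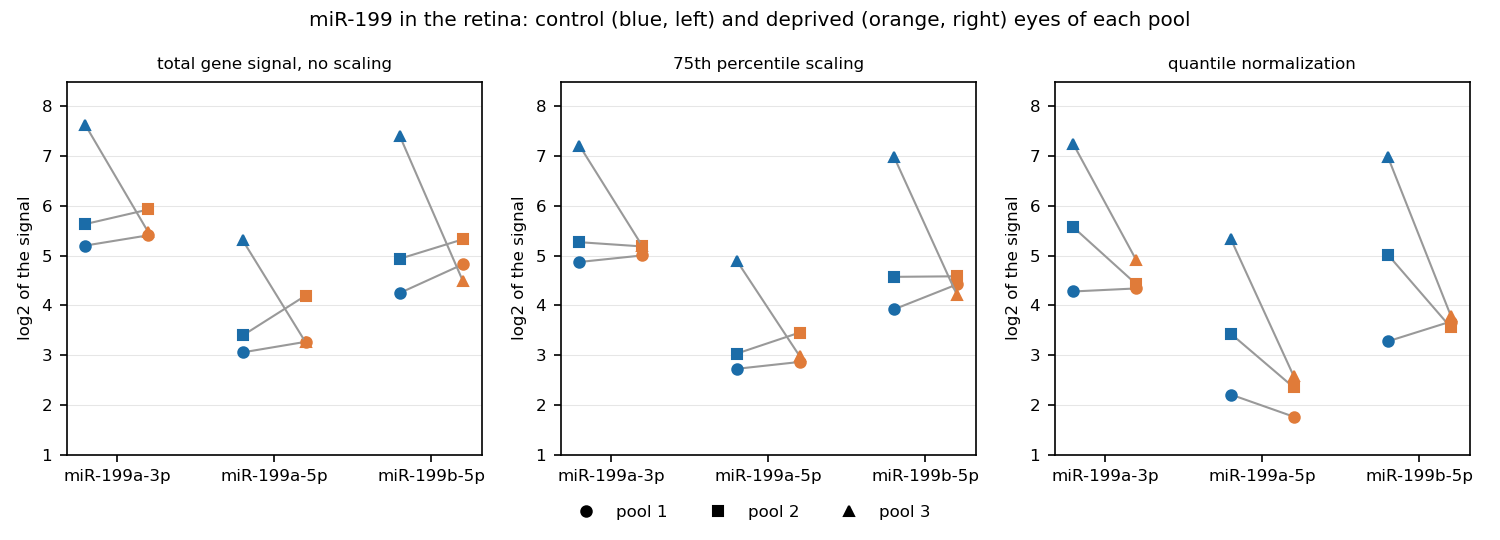
Log2 signal of the 3 miR-199 arms in the control retina (left) and the myopic retina (right) of each pool, with lines joining the eyes of a pool number, for the total gene signal without scaling, with 75th percentile scaling and with quantile normalisation. Control retina pool 3 is the highest point of each arm in all 3 panels, and the lines of pool 2 turn down for miR-199a-5p and miR-199b-5p only after quantile normalisation.

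Other miRNAs were high in the same control pool. Among 329 miRNAs detected on all 6 retina arrays, and relative to the mean of pools 1 and 2 after percentile scaling, miR-199b-5p was 6.69-fold higher in control retina pool 3 (rank 2 of 329), miR-199a-3p 4.41-fold (rank 4) and miR-199a-5p 4.06-fold (rank 5). In control retina pool 1 the miR-199b-5p signal held 1 probe, against 2 in pools 2 and 3. The median over the 329 was 0.07 on the log2 scale, and 10 were above 2-fold. Of the 13 stromal and smooth muscle miRNAs tested, 8 had their highest control retina value in this pool after quantile normalisation (61.5%), against 38.1% of all miRNAs tested, and 76.9% against 42.9% with percentile scaling. For the 10 miRNAs of retinal neurons and photoreceptors the share was 30% and 80%, for the 10 epithelial ones 40% and 30%, and for the 6 of blood cells 66.7% under both. The summed quantile-normalised signal of the stromal and smooth muscle miRNAs was 5961 to 6158 in control retina and 5799 to 5942 in myopic retina. Of this list 9 of 13 were detected on all 6 retina arrays and mmu-miR-10b-5p on none. The others were mmu-miR-145-5p (3 control and 0 myopic arrays), mmu-miR-455-5p (1 and 0) and mmu-miR-21-3p (2 and 3). The median myopic minus control retina difference was -0.13 over the list and -0.12 over all miRNAs tested. The summed quantile-normalised signal of 10 epithelial miRNAs was 104, 1227 and 3606 in control retina pools 1, 2 and 3 and 472 to 541 in myopic retina. This rise was that of 1 miRNA. In total gene signal the control sums were 179, 1493 and 5376, of which mmu-miR-184-3p made 94.0, 1479 and 5342. Of the control retina pools, mmu-miR-141-5p, mmu-miR-200a-5p and mmu-miR-429-3p were detected in pool 1 alone. In pool 3 alone mmu-miR-200b-3p and mmu-miR-205-5p were detected. The part of other cell types in the miR-199 difference was not tested.

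The call in the retina also hung on a control pool. Without control retina pool 1, 4 of the 5 miRNAs were called, with differences of -1.85 for miR-199a-3p (adjusted p = 0.0075), -2.15 for miR-199a-5p (adjusted p = 0.0075), -2.33 for miR-199b-5p (adjusted p = 0.0039) and 5.27 for miR-214-5p (adjusted p = 0.0089). In that fit 122 miRNAs were called in all, so that it is not particular to these 4. With array weights 4 were called as well, among 146 in all.

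The retinal miR-214-5p level was higher in the myopic eyes in 3 of 3 pools without overlap, as in 5.19% of all miRNAs tested. Its difference was 3.66 (SE 1.48, adjusted p = 0.151). By pool the total gene signal was 1.61 times the control in pool 1 and 13.1 times in pool 2, and pool 3 has no ratio, since the control was not detected. The quantile-normalised differences were 0.50, 2.63 and 7.86, the last against the floor. Without control retina pool 3 the difference was 1.51 (adjusted p = 0.313). Since the myopic retina pools differed little among themselves (6.97 ± 0.09), the spread lay in the control pools. The miR-214-3p arm was not detected in the control or the myopic retina.

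In the sclera the 5 miRNAs differed little between the eyes. The myopic minus control difference was 0.06 for miR-199a-3p, 0.20 for miR-199a-5p, 0.04 for miR-199b-5p, -0.18 for miR-214-3p and 0.16 for miR-214-5p, with an adjusted p of 1 for each. None of the 5 was called by limma and 0 had an unadjusted p-value under 0.05, where 0% of 443 were called and 2.93% had such a p-value. For miR-199a-5p the 3 myopic pools were above the 3 control pools, which was so for 1 of the 5 and, in this direction, for 2.93% of all miRNAs tested. The miR-214-3p difference turned to 0.13 without control sclera pool 3, whose level of 10.62 was above those of the other sclera arrays, between 9.65 and 9.84. The 5p minus 3p difference did not pass the test between the eyes either. It changed by -0.29 for miR-199a (adjusted p = 0.388) and 3.66 for miR-214 (adjusted p = 0.223) in the retina, and by 0.13 and 0.35 in the sclera (adjusted p = 1 for both). The retinal value for miR-214 is the miR-214-5p change again, since miR-214-3p was at the floor on every retina array. It does not measure the relation of the arms. None of 76 arm pairs was called between the eyes (0%), and at an unadjusted p-value under 0.05 there were 17.1% in the retina and 0% in the sclera.

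The change in the retina was also set against the change in the sclera. The difference of the changes was -1.20 for miR-199a-3p (adjusted p = 0.427), -1.62 for miR-199a-5p (adjusted p = 0.380), -1.46 for miR-199b-5p (adjusted p = 0.427), 0.18 for miR-214-3p (adjusted p = 0.695) and 3.50 for miR-214-5p (adjusted p = 0.386). None of the 5 was called, where 0.226% of all miRNAs tested were, and none had an unadjusted p-value under 0.05, against 8.13%. Without control retina pool 1 the 3 miR-199 arms were called, among 111 in all. By mean quantile-normalised level, the order for each miR-199 arm was thus myopic sclera, control sclera, control retina and myopic retina, and only the step between sclera and retina passed the test. For miR-214-5p the myopic retina was highest, while the place of the control retina was not settled. The control retina mean is last only with the undetected pool at the floor. Its other pools had total gene signals above every sclera array. On the probe of 17 bases alone and before scaling, control retina pool 2, at 5.51, lay within the scleral range of 3.48 to 10.5. This place depends on the scaling. The percentile scaling divides control retina pool 2 by 1.29 and brings the scleral signals, from this probe alone, to 10.6 to 14.4. On this probe the pool then lies below every sclera array.

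The miRNAs most like each of the 5 over the 12 arrays were found by the Pearson correlation of the quantile-normalised log2 levels among 349 other miRNAs. For miR-199a-3p, miR-199a-5p and miR-199b-5p the nearest was mmu-miR-152-3p, a stromal miRNA, at 0.998 each. For miR-214-3p the nearest were mmu-miR-675-3p and mmu-miR-24-3p, both at 0.999. These values rest on the gap between 6 retina and 6 sclera arrays that all of them share. Over the same 12 arrays miR-214-5p had correlations of -0.32 to -0.29 with the miR-199 arms and -0.13 with the 3p arm of its own hairpin. Within the 6 retina arrays the 3 miR-199 arms went together, at 0.974 to 0.991, and without control retina pool 3 at 0.859 to 0.949. With percentile scaling these were 0.973 to 0.989 and 0.659 to 0.753. The correlations of miR-214-5p with the miR-199 arms in these 6 arrays were -0.980 to -0.974, and with percentile scaling -0.945 to -0.872, but without control retina pool 3 the latter were -0.465 to 0.119.

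The miRNAs nearest to miR-214-5p were mmu-miR-466i-3p at 0.887, mmu-miR-1187 at 0.871 and mmu-miR-574-5p at 0.861. Their mature sequences are given, with the seed in capitals, because all 3 are largely alternating bases.
mmu-miR-466i-3p: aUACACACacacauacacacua
mmu-miR-1187: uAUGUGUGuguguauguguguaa
mmu-miR-574-5p: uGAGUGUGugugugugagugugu
None of them shares the seed of miR-214-5p. The miR-574-5p signal was 812, 187 and 95.8 in the control retina pools, 875, 1054 and 614 in myopic retina, 305, 257 and 228 in control sclera and 219, 168 and 146 in myopic sclera. The miR-1187 signal was 623, 104 and 44.9 in control retina and 648, 890 and 468 in myopic retina. The miR-466i-3p signal was 172 and 8.84 in control retina pools 1 and 2 and was not detected in pool 3, against 164, 255 and 68.2 in myopic retina. As in miR-214-5p, pool 1 was the highest and pool 3 the lowest of the control retina for all 3, which follows in part from their choice by correlation over the same arrays.

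**Figure D5:**
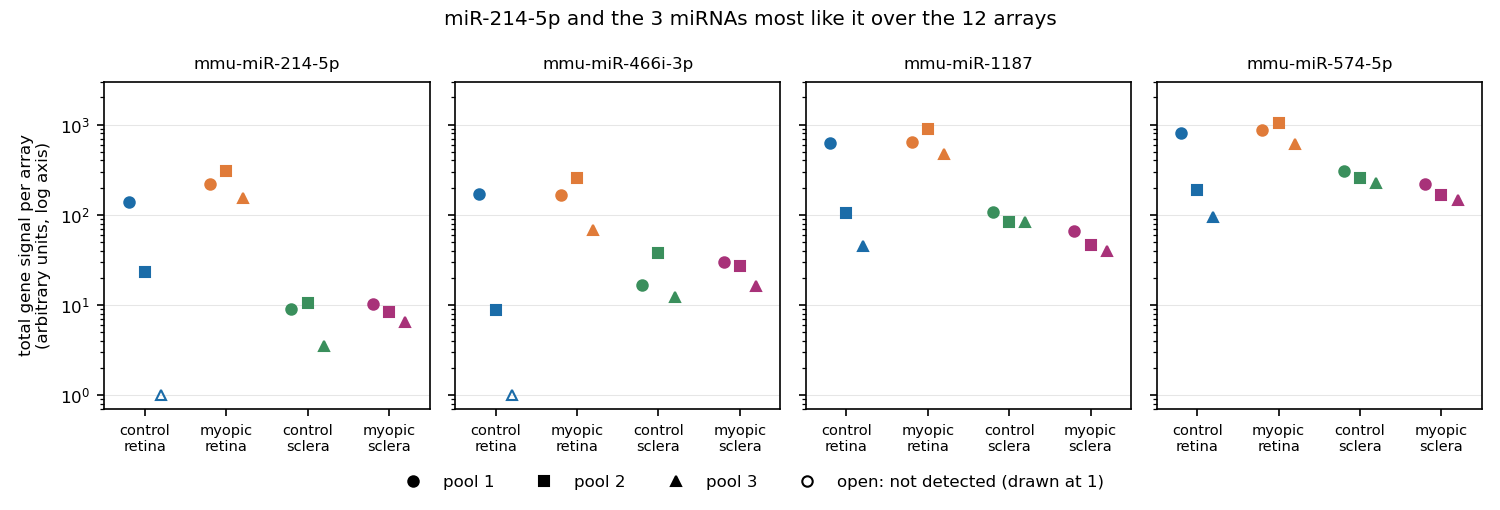
Total gene signal (array units, log axis) of miR-214-5p and of mmu-miR-466i-3p, mmu-miR-1187 and mmu-miR-574-5p on the 12 arrays, by group and pool; arrays without detection are drawn as open points at 1. In the control retina all 4 are highest in pool 1 and lowest or not detected in pool 3, and the 3 myopic retina pools lie closer together.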

How the data were processed

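Total RNA of each pool was labelled with Cy3 and hybridised to 1-colour Agilent mouse miRNA arrays. The authors deposited the scanner output, whose values are background-subtracted fluorescence intensity with no normalisation between arrays, and a table of log2 values of the same arrays. Per the file headers the arrays were read with Agilent Feature Extraction, and per the labels Partek 6.6 was used. That table served as an alternative input. Its correlation with the values computed here was 0.999 over 437 miRNAs, which sets its scale and direction, while the limits of its filter, a removal of absent features and outliers, are not given in the sources used here.

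The total gene signal, which is 0.1 for a miRNA without a detected probe, was set to at least 0.5, quantile normalised over 696 names and 12 arrays and transformed to log2, so that an undetected miRNA is at -1. A probe is detected when its signal is above 3 times its error, and this held for all names on all arrays. The 253 names detected on no array were left out and 443 were tested. The 4 groups were fitted with limma 3.58.1 in R 4.3.3 with 8 residual degrees of freedom, two-sided, with Benjamini-Hochberg adjustment over all 443 miRNAs, or over 76 arm pairs for the 5p minus 3p difference. The fit was tested on simulated data. Each array holds 100 spots for the 5 miRNAs.

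The 5 miRNAs and the marker lists were chosen with earlier results of these data known. The text names the 5 miRNAs, up to 3 nearest miRNAs of each by correlation, and up to 3 miRNAs of a list with the largest difference between the control tissues. Further miRNAs of a list are named where their detection in the retina or their part in a list sum is given. The 7 lists, by how many were lower and higher in control retina, were stromal and smooth muscle (10 and 1 of 13), retinal neurons and photoreceptors (0 and 10 of 10), pigment cells (0 and 1 of 2), skeletal muscle (4 and 0 of 4), endothelium (2 and 0 of 2), blood cells (3 and 0 of 6) and epithelium (7 and 0 of 10).

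The labels give arrays of the same number the same mouse, and arrays of a number share a slide, so the pool number was run as a block. The deviations of same-numbered arrays from their group means had correlations of 0.38, -0.46 and 0.59 in the retina and of -0.14, -0.16 and -0.00 in the sclera. Each group had the same position on every slide, so position and group cannot be told apart. The alternatives were other scalings, floors, background corrections and filters, array weights, the block, other sets of arrays and leaving out each array in turn.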

Additional observations from a re-analysis of the deposited data

Results flagged for a closer look

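The miR-199a-5p level moved in opposite directions in the tissues in every pool after quantile normalisation: it was lower in the myopic retina in 3 of 3 pools and higher in the myopic sclera in 3 of 3. The change in the retina minus the change in the sclera was -1.62 (SE 0.89, limma adjusted p = 0.380), which did not pass the test. With the 75th percentile scaling miR-199a-5p was higher in the myopic retina in pools 1 and 2, so that the opposite directions were found with the quantile normalisation and not with this scaling.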

How the results depend on the processing

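Of the 9 counts of called miRNAs or arm pairs, 240 alternative values stayed within 1.5 times the reported count and 10 did not; the causes were not tested. With array weights, the calls between myopic and control retina went from 0 to 4 of 5 miRNAs, among 146 in all. Those for the difference of the changes went from 0 to 4, among 156 in all, and the arm pairs between the retinas from 0 to 1. This pair was miR-214, whose 3p arm was at the floor in the retina. Leaving out 1 array in turn gave 0 to 4, 0 to 3 and 0 to 1 for these counts, the highest of each without control retina pool 1. With normexp background correction 2 of 2 arm pairs were called between the tissues in control and in deprived eyes, with 2.18 and 2.53 for miR-199a. With only miRNAs detected on all 12 arrays 0 were, since miR-214-3p and miR-214-5p are left out by this filter.

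For single miRNAs, 843 of 903 alternative values kept direction and call, 23 passed the threshold only in the alternative, and 37 turned in sign. Among these, the miR-199a 5p minus 3p difference turned in myopic against control retina to 0.21 with percentile scaling or no normalisation, 0.040 with processed spot signals and 0.16 with normexp. In myopic against control sclera it turned to -0.055 with the scalings, -0.19 with normexp and -0.087 with the deposited values. Between the control tissues it turned to -0.19, to -0.23 with the deposited values and to -0.089 with 6 against 6 arrays. Between the deprived tissues it turned to 0.067 with the scalings, 0.057 with a floor at the lowest detected signal, 0.17 with processed spot signals and 2.53 with normexp. The miR-214-3p change in the sclera turned to 0.061 with the percentile over all names, 0.10 with array weights and 0.13 without control sclera pool 3 (-0.36 to 0.13 without 1 array each), and its difference of the changes to -0.061, -0.10 and -0.13 (-0.13 to 0.36) with these, -1.11 with processed spot signals and -0.0017 with normexp. The miR-214-5p difference between the control tissues turned to 0.75 with no normalisation, 0.91 with processed spot signals, 0.11 with normexp, 0.53 with 6 against 6 arrays and 0.93 without control retina pool 3 (-2.83 to 0.93 without 1 array each). Leaving out this pool with percentile scaling, chosen after seeing the data, gave 0.055, 0.22 and 0.16 for miR-199a-3p, miR-199a-5p and miR-199b-5p in the retina.

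Fitted with a replicate block, the pool number, 0 of 5 were called between the eyes in either tissue. Over all miRNAs tested the share was 0.226% in the retina and 0% in the sclera. Between the tissues 4 of 5 were called in control eyes, against 50.6% of all, and 4 in deprived eyes, against 59.1%. For the difference of the changes 0 were called, against 0% of all, and the block changed no call of an arm pair. The retinal miR-199a-5p signal was 3.37 to 8.71 times its error, against a limit of 3 for detection, and miR-214-3p gave only a bound in retina.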

Other observations

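The pattern of the miR-214-5p probes was also found for other names on the arrays. Of 670 names with nested probes, 28 had only the longest probe detected on all 6 sclera arrays. Of these 28, 10 had the longest and shortest probe detected on at least 5 retina arrays, miR-214-5p among them. The 670 include names detected on no array, which could not show the pattern. The reverse, with only the longest probe detected in retina and both in sclera, was found for 4 names, miR-199a-5p among them. Where 4 nested probes were read, the log2 ratio of the longest to the shortest had a median of 0.61 over 41 miRNAs in retina and 0.01 over 13 in sclera. Each set was taken by detection in its own tissue, so the medians are not over the same miRNAs.

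The seed of miR-214-3p is shared with mmu-miR-761, which was on the array and was detected on 0 of 12 arrays. The seed of miR-199a-3p was shared only with the identical miR-199b-3p. The seeds of miR-199a-5p and miR-214-5p were found in no other mature entry of the RefSeq table. That table has no mature entry for miR-199b-5p, so the search could not find a seed shared with it. The sequence matched by the miR-199b-5p probe of 22 bases, ccagtgtttagactacctgttc, starts with the bases of the miR-199a-5p seed, written as DNA.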
